A study of Mus musculus with 6 samples.

Results

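Transcripts of the tumour necrosis factor (TNF) superfamily were measured in LSK cells, the lineage-negative, Kit-positive and Sca1-positive cells of mouse bone marrow that contain the blood stem cells and the earliest multipotent progenitors. Members were the genes whose only annotated symbol starts with Tnfsf or Tnfrsf and a digit, or is Tnf, Lta, Ltb, Ltbr, Fas, Fasl, Cd40, Cd40lg or Cd70. The rule found 36 of 18193 genes, made up of 13 ligand genes, 22 receptor genes and 1 antisense RNA. That RNA, Tnfsf13os, is transcribed opposite the ligand gene Tnfsf13 and encodes no ligand, but its symbol brings it under the rule. Ligand genes Tnfsf12 and Tnfsf13 shared their probe sets and were not analysed here.

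The 3 gates compared were CD34+Flt3hi, CD34+Flt3- and CD34-Flt3- LSK cells, with 2 expression arrays of each (6 in all). All cells came from the marrow of mice aged 10 to 14 weeks, and the labels name no strain, genotype or treatment that would separate the groups. Whether both arrays of a gate came from separate mice or sorts is not given, so the p-values reflect array-to-array spread that may be technical. Sample titles carry 3 codes whose meaning is not stated. Code A marks replicate 2 of every gate, code B replicate 1 of CD34+Flt3hi and of CD34+Flt3- cells, and code C replicate 1 of CD34-Flt3- cells.

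TNF superfamily ligands are mostly membrane proteins that act as trimers, on the cell surface or after shedding. Their receptors fall into those with an intracellular death domain, which can start caspase-driven death, those that recruit TRAF adaptors and switch on NF-kB, and decoys that bind ligand without a full signal. In blood formation the family is best known for lymphocyte survival and lymphoid organ structure, and TNF itself is known to act on stem and progenitor cells during inflammation.

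The values are log2 signal intensities, and the number of arrays limits their precision. Median linear intensity lay between 29.7 and 31.4 on the 6 arrays. A gate mean was called above background past 4.50 on the log2 scale. Of the single-array values of 27 probe sets for bacterial genes, 90% lay under this level. Over all genes the 2 arrays of a gate correlated at 0.99 for CD34+Flt3hi, 0.981 for CD34+Flt3- and 0.969 for CD34-Flt3- cells. CD34-Flt3- replicate 1 was as near to CD34+Flt3- replicate 1 (0.971) as to its own replicate. Cd34 and Flt3 RNA followed the sort, with Cd34 at 11.35 and 11.34 in CD34+Flt3hi, 10.51 and 10.68 in CD34+Flt3- and 8.78 and 9.45 in CD34-Flt3- cells. Flt3 read 12.01 and 11.75, 8.84 and 9.81, and 7.65 and 9.16 in the same order. Its arrays thus overlapped between the Flt3- gates, were above background in both, and spread widely in CD34-Flt3- cells (SD 1.07). The list of sort antigens and early progenitor genes had 5 measured genes, the others being Kit, Procr and Slamf1. In the same order of gates Kit read 9.63 and 9.22, 10.26 and 8.82, and 10.99 and 9.83. Procr read 7.65 and 7.2, 8.47 and 7.93, and 10.51 and 10.18. Slamf1 read 3.98 and 4.5, 5.8 and 5.17, and 7.33 and 7.36. Both Procr and Slamf1 were lower in CD34+Flt3hi than CD34-Flt3- cells (limma adjusted p = 0.000548 for each). Markers of mature cells were mixed. Cd3g, Cd5, Ms4a1, S100a8, S100a9, Ltf, Itgam, Xcr1, Cd209a, Cdh5, Col3a1 and Hba-a1 had means below background in every gate, while Cd3e, Cd4, Cd8a, Cd79a, Cd79b, Camp, Ngp, Siglech, Csf1r, Kdr and Cxcl12 had means above it in every gate. Over the list of neutrophil and monocyte markers, 3 of 8 were above background in CD34+Flt3hi, 4 in CD34+Flt3- and 4 in CD34-Flt3- cells, with mean levels of 4.96 to 5.2, 4.71 to 4.89 and 4.57 to 4.84. In that list Csf1r, the receptor gene of macrophage colony-stimulating factor, read 9.57 and 8.89 in CD34+Flt3hi, 6.82 and 7.58 in CD34+Flt3- and 5.79 and 6.36 in CD34-Flt3- cells, and was 8.91-fold higher in CD34+Flt3hi than CD34-Flt3- cells (limma adjusted p = 0.00117). Dendritic cell markers gave 2, 1 and 2 of 4 above background in the same order of gates, with mean levels of 4.66 to 4.78, 4.46 to 4.48 and 4.54 to 4.68. The part of these markers in the results was not tested.

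Of the 36 members, 21 had a mean above background in all 3 gates, 6 in some gates and 9 in none, on the probe set used for each. A mean above background in all 3 gates was found for 58.3% of the members and for 68.7% of all genes. Nothing was filtered out, so every member was tested. By limma with adjustment over all genes, 4 members differed among the gates in a moderated F test (adjusted p under 0.05). These 4 are 11.1% of the members, where 4.67% of all genes passed the same test. They were Ltb, Tnfrsf1b, Tnfsf4 and Tnfsf13os.

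**Figure D1:**
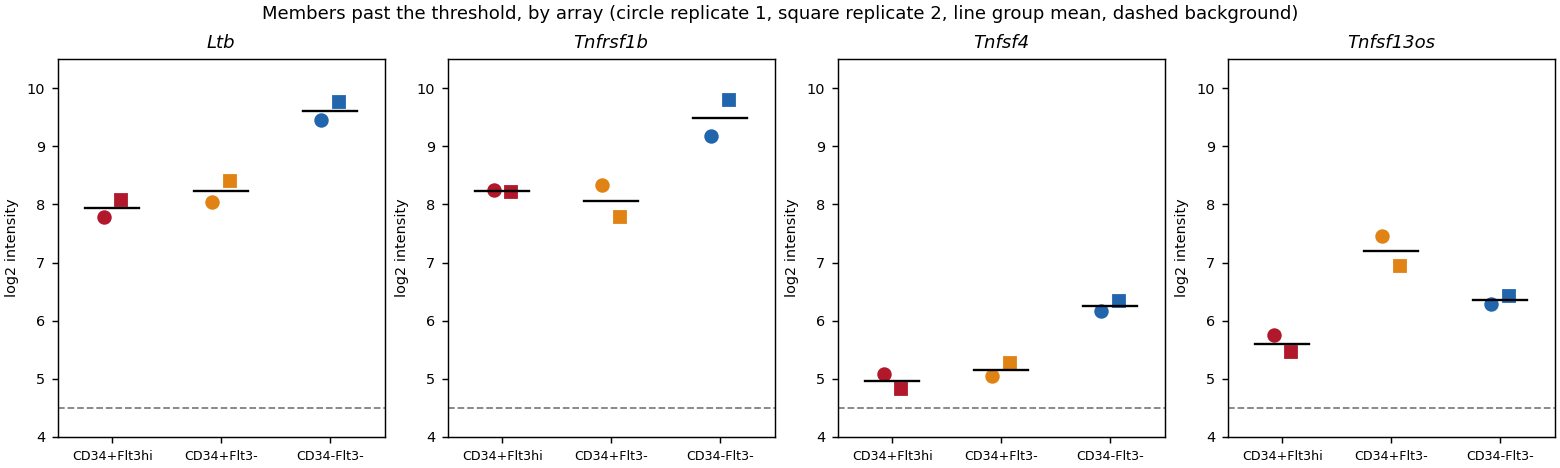
Log2 intensity (vertical axes) of the 4 members that passed a test, on each of the 6 arrays by gate, with circles for replicate 1, squares for replicate 2, a line for the gate mean and a dashed line for background at 4.50. Ltb, Tnfrsf1b and Tnfsf4 are lower on all 4 arrays of the CD34+Flt3hi and CD34+Flt3- gates than on both CD34-Flt3- arrays, and Tnfsf13os is highest on the CD34+Flt3- arrays.

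Ltb, Tnfrsf1b and Tnfsf4 shared a pattern, a lower signal in both CD34+ gates than in CD34-Flt3- cells. Ltb (Entrez gene 16994) encodes lymphotoxin beta, the subunit that holds lymphotoxin at the cell membrane. Its log2 intensity was 7.79 and 8.08 in CD34+Flt3hi cells, 8.05 and 8.41 in CD34+Flt3- cells and 9.46 and 9.77 in CD34-Flt3- cells. The CD34-Flt3- arrays thus stood above all 4 others, while the CD34+Flt3hi and CD34+Flt3- arrays overlapped. CD34+Flt3hi cells had 3.19-fold less Ltb signal than CD34-Flt3- cells (log2 -1.68 ± 0.26, SE; limma adjusted p = 0.00484; -1.68 within code A). CD34+Flt3- cells had 2.61-fold less than CD34-Flt3- cells (log2 -1.38 ± 0.26; limma adjusted p = 0.0318; -1.36 within code A). Between the CD34+ gates the difference was -0.29 (95% interval -0.87 to 0.29, limma adjusted p = 0.949). In bulk samples, fewer cells that express a gene and less RNA per cell cannot be told apart.

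Tnfrsf1b (Entrez gene 21938) encodes TNF receptor 2, which lacks a death domain and signals through TRAF2. It read 8.24 and 8.21 in CD34+Flt3hi cells, 8.34 and 7.78 in CD34+Flt3- cells and 9.18 and 9.80 in CD34-Flt3- cells. Here too both CD34-Flt3- arrays lay above the other 4. The fall was 2.40-fold in CD34+Flt3hi against CD34-Flt3- cells (log2 -1.26 ± 0.30, limma adjusted p = 0.0332, -1.59 within code A). In CD34+Flt3- against CD34-Flt3- cells it was 2.69-fold (log2 -1.43 ± 0.30, limma adjusted p = 0.0422, -2.01 within code A). A further Tnfrsf1b probe set moved the same way but less, by -0.44 and -0.32 in these comparisons, and the mean of both probe sets passed neither (limma adjusted p = 0.0919 and 0.13).

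Tnfsf4 (Entrez gene 22164) encodes OX40 ligand, a costimulator of T cells when carried by antigen-presenting cells. Its log2 intensities were 5.09 and 4.83 in CD34+Flt3hi cells, 5.05 and 5.27 in CD34+Flt3- cells and 6.17 and 6.34 in CD34-Flt3- cells. All of them were above background, and the CD34-Flt3- arrays again stood apart. CD34+Flt3hi cells were 2.45-fold lower than CD34-Flt3- cells (log2 -1.29 ± 0.26, limma adjusted p = 0.017, -1.51 within code A). For CD34+Flt3- against CD34-Flt3- cells the difference of -1.09 ± 0.26 did not pass (limma adjusted p = 0.0666, -1.07 within code A).

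The calls of these 3 genes were lost in some refits that left out a single array. Each refit had fewer arrays from which to estimate the spread. Leaving out an array of the gate not compared does not change the difference itself. A lost call therefore does not show that the call rested on that array. In CD34+Flt3hi against CD34-Flt3- cells the limma adjusted p without CD34+Flt3hi replicate 1 or 2 was 0.0931 and 0.0506 for Ltb, 0.25 and 0.254 for Tnfrsf1b and 0.113 and 0.211 for Tnfsf4, and for Tnfrsf1b it was 0.0843 without CD34-Flt3- replicate 2. In CD34+Flt3- against CD34-Flt3- cells, Ltb had 0.096 and 0.0975 without CD34+Flt3hi replicates 1 and 2 and 0.115 and 0.214 without CD34+Flt3- replicates 1 and 2. Tnfrsf1b had 0.113, 0.114, 0.0684 and 0.372 in the same order and 0.0543 without CD34-Flt3- replicate 2. Leaving out any 1 of the 6 arrays kept the direction, with Ltb between -1.83 and -1.21 and Tnfrsf1b between -1.74 and -0.95 over both comparisons, and Tnfsf4 between -1.42 and -1.16 in CD34+Flt3hi against CD34-Flt3- cells.

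Other readings moved with the CD34-Flt3- gate as well. The 3 prime actin control probe set read 12426 and 12814 in CD34+Flt3hi, 12963 and 12587 in CD34+Flt3- and 7693 and 7368 in CD34-Flt3- cells in linear units. In the same units the BioC control probe sets read 4281 and 4849 on CD34-Flt3- replicate 2, against 1916 to 2876 on the other arrays. Of the endothelial and stromal markers, 2 of 6 had a mean above background in CD34+Flt3hi cells, 2 in CD34+Flt3- and 4 in CD34-Flt3- cells, with a mean level over the list of 4.40 to 4.57, 4.48 to 4.49 and 4.90 to 4.98. Kdr, an endothelial growth factor receptor gene, was the member of that list that differed (5.52 and 5.43, 5.71 and 5.98, and 7.59 and 6.94 in the same order), while Cdh5 and Col3a1 were below background throughout. Mean levels of the T and NK lineage markers ran from 4.78 to 4.80 in CD34+Flt3hi, 4.89 to 4.98 in CD34+Flt3- and 4.73 to 5.10 in CD34-Flt3- cells, with 3, 3 and 5 of 7 above background. B lineage markers gave 5.02 to 5.13, 4.82 to 4.96 and 5.16 to 5.22, with 3, 2 and 3 of 5 above background. The part of these differences in the results was not tested.

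The bases before the annotated start of Ltb and Tnfrsf1b are shown because these members were both lower in the CD34+ gates, and those of Tnf because it lies next to Ltb and did not show that pattern. Each is 250 bases from RefSeq (GRCm38.p6), 5′ to 3′ on the strand of the gene, and ends just before the start. The Ltb window is chr17:35194257-35194506 on the plus strand, the Tnfrsf1b window chr4:145246871-145247120 on the minus strand and the Tnf window chr17:35202008-35202257 on the minus strand. Capitals mark matches, on either strand, to an NF-kB consensus, an extended ETS motif, a GC box or a TATA box.
Ltb: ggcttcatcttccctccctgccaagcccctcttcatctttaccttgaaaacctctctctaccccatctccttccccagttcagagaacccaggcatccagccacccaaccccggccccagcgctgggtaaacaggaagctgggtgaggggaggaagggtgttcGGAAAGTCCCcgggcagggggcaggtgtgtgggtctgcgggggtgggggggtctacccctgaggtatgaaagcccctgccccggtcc
Tnfrsf1b: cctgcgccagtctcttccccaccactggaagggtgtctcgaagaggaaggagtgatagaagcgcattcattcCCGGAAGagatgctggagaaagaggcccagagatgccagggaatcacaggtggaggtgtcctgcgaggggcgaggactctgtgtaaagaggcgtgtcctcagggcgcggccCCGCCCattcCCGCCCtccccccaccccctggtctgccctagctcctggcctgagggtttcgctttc
Tnf: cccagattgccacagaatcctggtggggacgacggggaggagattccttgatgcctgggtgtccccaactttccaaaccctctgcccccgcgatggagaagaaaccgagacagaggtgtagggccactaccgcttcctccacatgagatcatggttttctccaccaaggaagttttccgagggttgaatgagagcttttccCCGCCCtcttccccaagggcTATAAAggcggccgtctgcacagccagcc
Ltb held 1 match to the NF-kB consensus, GGAAAGTCCC as it stands in the window, on the opposite strand and beginning 87 bases before the gene start. Tnfrsf1b held 1 match to the extended ETS motif, searched as CCGGAAG, and 2 GC boxes on the opposite strand. Other forms of the ETS motif were not searched, and AGGAAG stands unmarked in all windows shown. The GC box was searched as GGGCGG in all windows of the table. Tnf held 1 GC box on the opposite strand and a TATA box, searched as TATAAA, that starts 29 bases before the gene start. No capital base belongs to more than 1 motif. Among 32817 such windows in the RefSeq table, 1.41% held the NF-kB motif, 6.9% the extended ETS motif, 32.7% a GC box and 12.4% the TATA box. Of the 27 members with a window, 3 held the NF-kB motif (Ltb, Tnfrsf9 and Tnfrsf25) and 3 the extended ETS motif (Tnfrsf1a, Tnfrsf1b and Tnfrsf12a). A GC box was held by 14 and the TATA box by 5. A match is a description of letters and was not tested as a binding site.

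The fourth member, the antisense RNA Tnfsf13os (Entrez gene 100503827), was highest in the middle gate. It read 5.75 and 5.46 in CD34+Flt3hi cells, 7.46 and 6.94 in CD34+Flt3- cells and 6.28 and 6.43 in CD34-Flt3- cells, so that no 2 gates overlapped. CD34+Flt3hi cells were 3.0-fold lower than CD34+Flt3- cells (log2 -1.59 ± 0.29, limma adjusted p = 0.0496; -1.47 within code A and -1.70 within code B). The differences from CD34-Flt3- cells were 0.84 for CD34+Flt3- (limma adjusted p = 0.182) and -0.75 for CD34+Flt3hi cells (limma adjusted p = 0.203), and neither passed. The call was lost on leaving out any single array of the gates compared, in refits that also had fewer arrays from which to estimate the spread. A further probe set, below background in every gate, gave 0.22, and the mean of both gave -0.68 (adjusted p = 0.361).

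**Figure D2:**
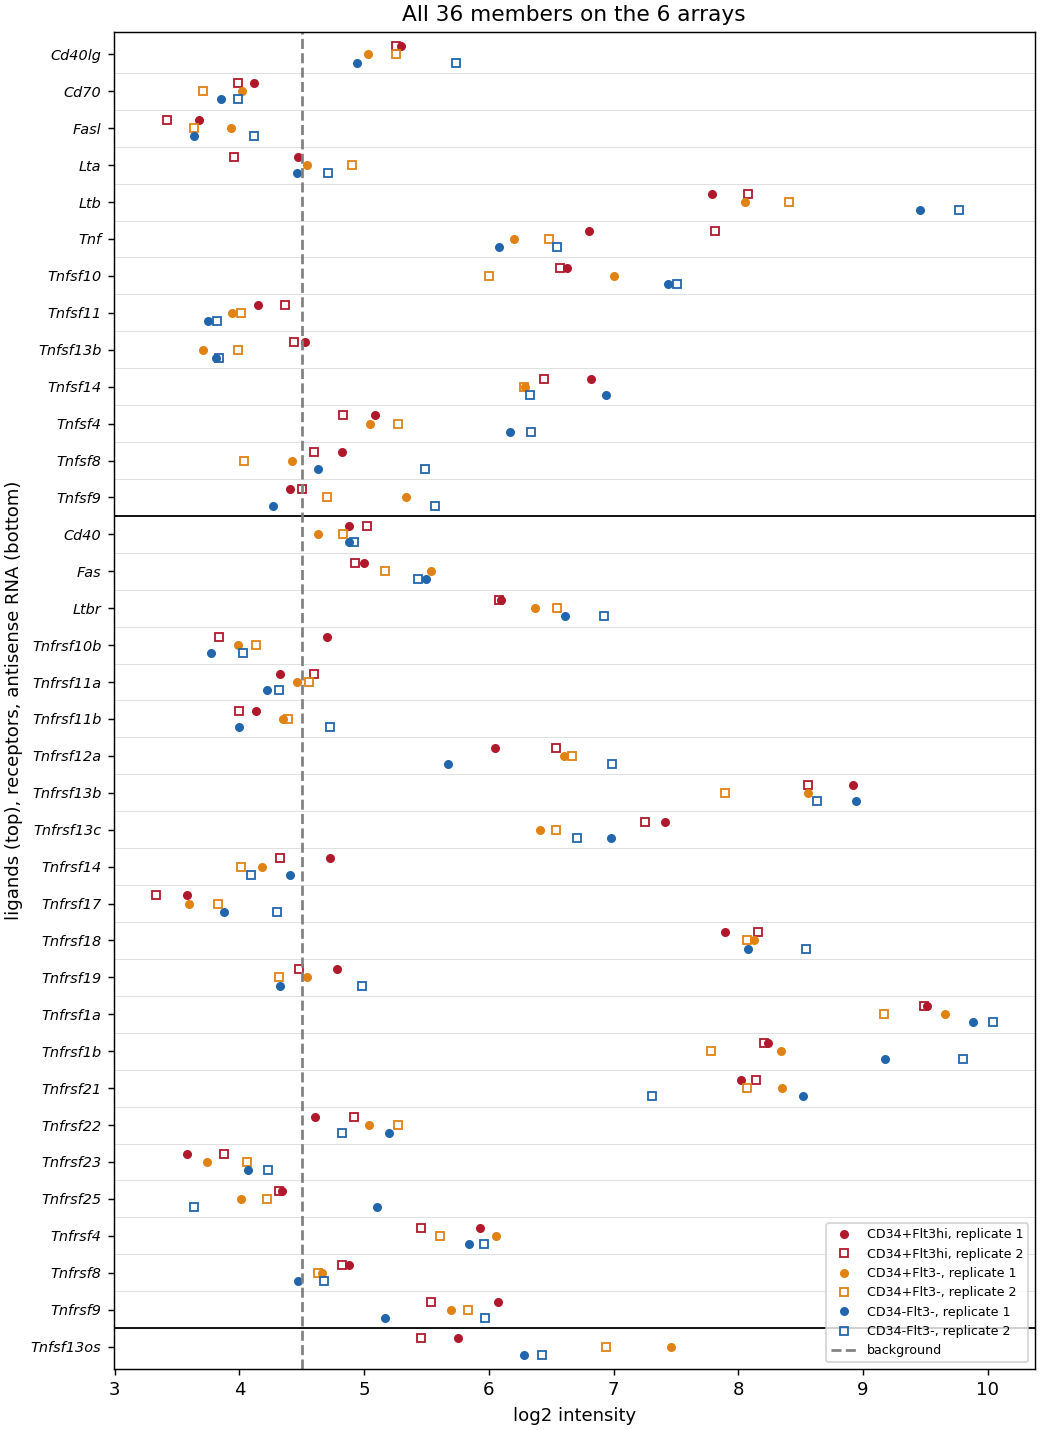
Log2 intensity (horizontal axis) of all 36 members on the 6 arrays, with ligands above, receptors in the middle and the antisense RNA at the bottom, filled circles for replicate 1, open squares for replicate 2 and a dashed line for background at 4.50. Of these members 21 have a mean above background in all 3 gates and 9 in none.

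Apart from these 4, no member passed a test between gates. In CD34+Flt3hi against CD34+Flt3- cells 0 of 36 members rose and 1 fell (2.78%), where 0.385% of all genes rose and 0.225% fell, and 4 members (11.1%, beside 6.76% of all genes) had an unadjusted p under 0.05. In CD34+Flt3- against CD34-Flt3- cells 0 rose and 2 fell (5.56%), beside 0.77% and 1.33% of all genes, and 7 (19.4%, beside 16.9% of all genes) had an unadjusted p under 0.05. In CD34+Flt3hi against CD34-Flt3- cells 0 rose and 3 fell (8.33%), beside 2.62% and 3.5% of all genes, and 10 (27.8%, beside 18.3% of all genes) had an unadjusted p under 0.05. The median difference of the members was 0.06, -0.13 and -0.14 in these comparisons, and that of all genes 0.03, -0.10 and -0.07. Arrays of the 2 gates did not overlap for 21, 16 and 17 members (58.3%, 44.4% and 47.2%), beside 40.4%, 44.2% and 47.9% of all genes. The comparisons share arrays and are not independent of each other.

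**Figure D3:**
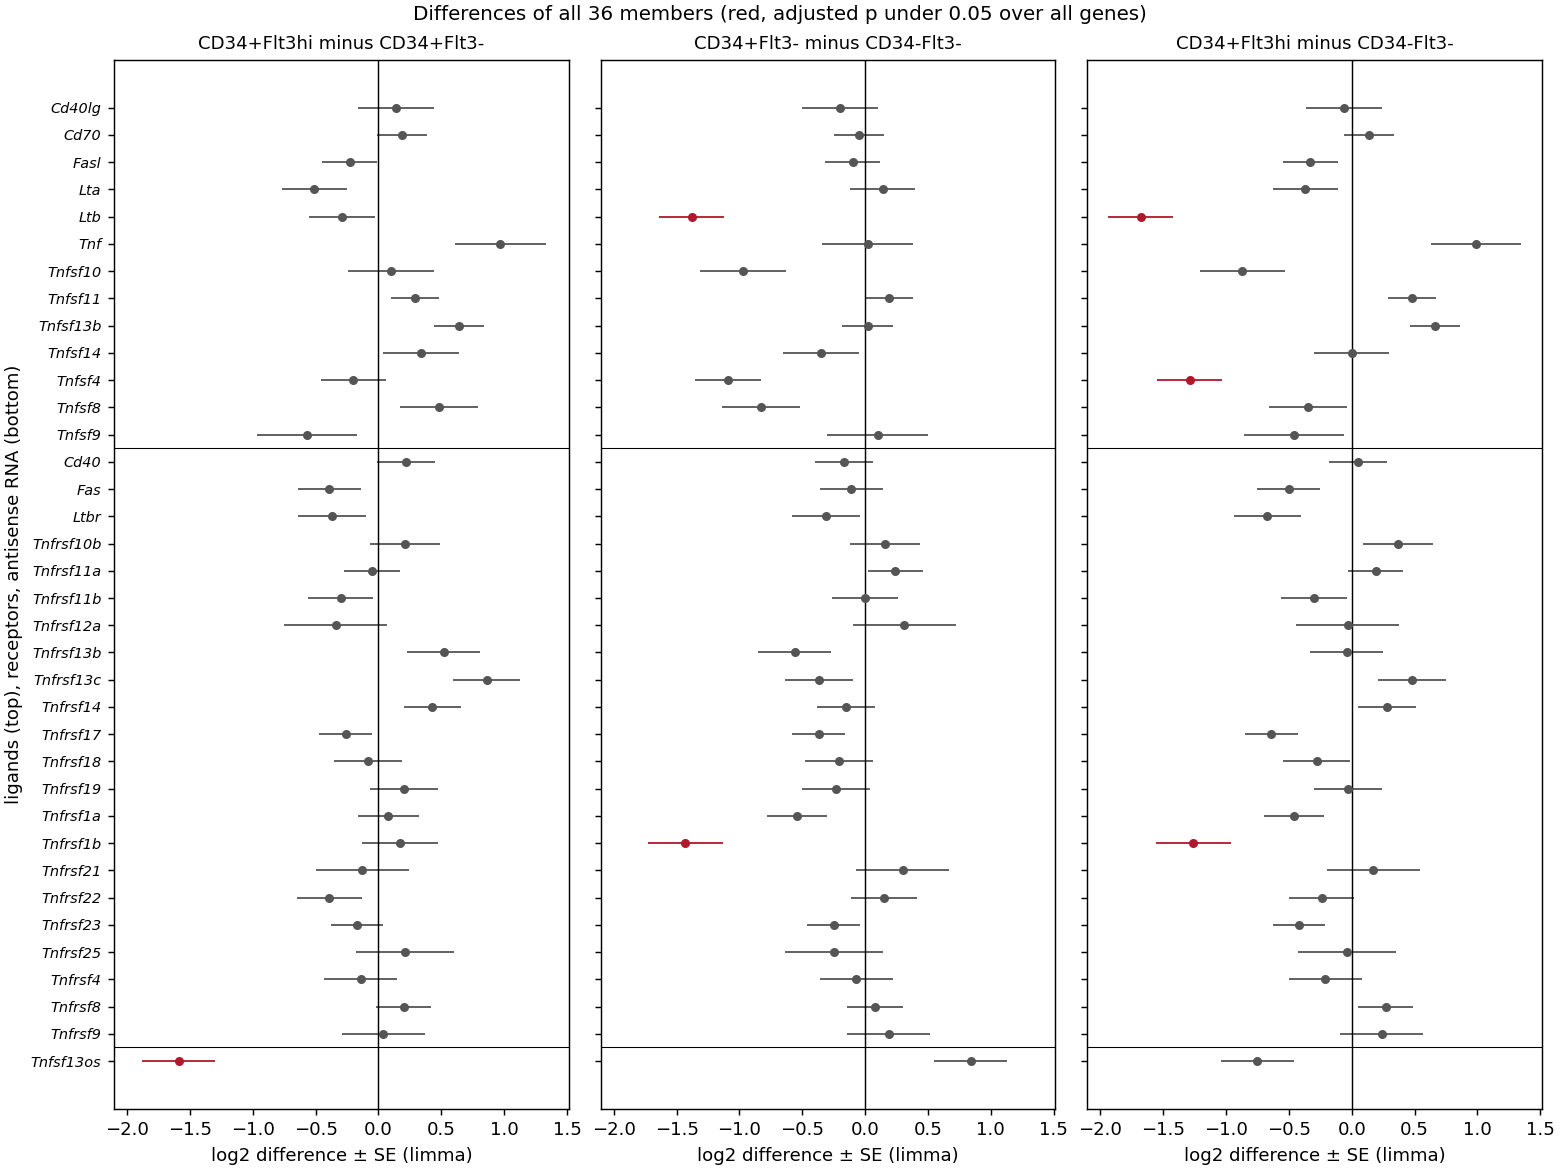
Log2 differences with their standard errors from limma (horizontal axes) of the 36 members in the 3 comparisons, in red where the adjusted p over all genes is under 0.05. Ltb and Tnfrsf1b are red in both comparisons with CD34-Flt3- cells, Tnfsf4 in CD34+Flt3hi against CD34-Flt3- cells, and Tnfsf13os in CD34+Flt3hi against CD34+Flt3- cells.

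Among the ligands, Tnf, the founding cytokine of the family, gave the highest values in CD34+Flt3hi cells. It read 6.80 and 7.81 there, 6.2 and 6.48 in CD34+Flt3- cells and 6.08 and 6.55 in CD34-Flt3- cells. The CD34+Flt3hi arrays did not overlap the others, and their SD of 0.72 was larger than in the other gates (0.20 and 0.33). Differences of 0.97 ± 0.36 from CD34+Flt3- and 0.99 ± 0.36 from CD34-Flt3- cells did not pass (limma adjusted p = 0.587 and 0.174). CD34+Flt3- cells differed from CD34-Flt3- cells by 0.02 (95% interval -0.79 to 0.83).

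Ltb, Tnf and Lta are next to each other on chromosome 17 with no other protein-coding gene between them. Lta, which encodes the lymphotoxin subunit that pairs with lymphotoxin beta, stayed near background, at 4.47 and 3.96 in CD34+Flt3hi, 4.54 and 4.90 in CD34+Flt3- and 4.46 and 4.71 in CD34-Flt3- cells. None of its differences passed (limma adjusted p = 0.799, 0.839 and 0.516 for CD34+Flt3hi against CD34+Flt3-, CD34+Flt3- against CD34-Flt3- and CD34+Flt3hi against CD34-Flt3- cells). Of these 3 neighbours Ltb alone was past the threshold in any comparison, and whether they differ from each other was not tested.

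**Figure D4:**
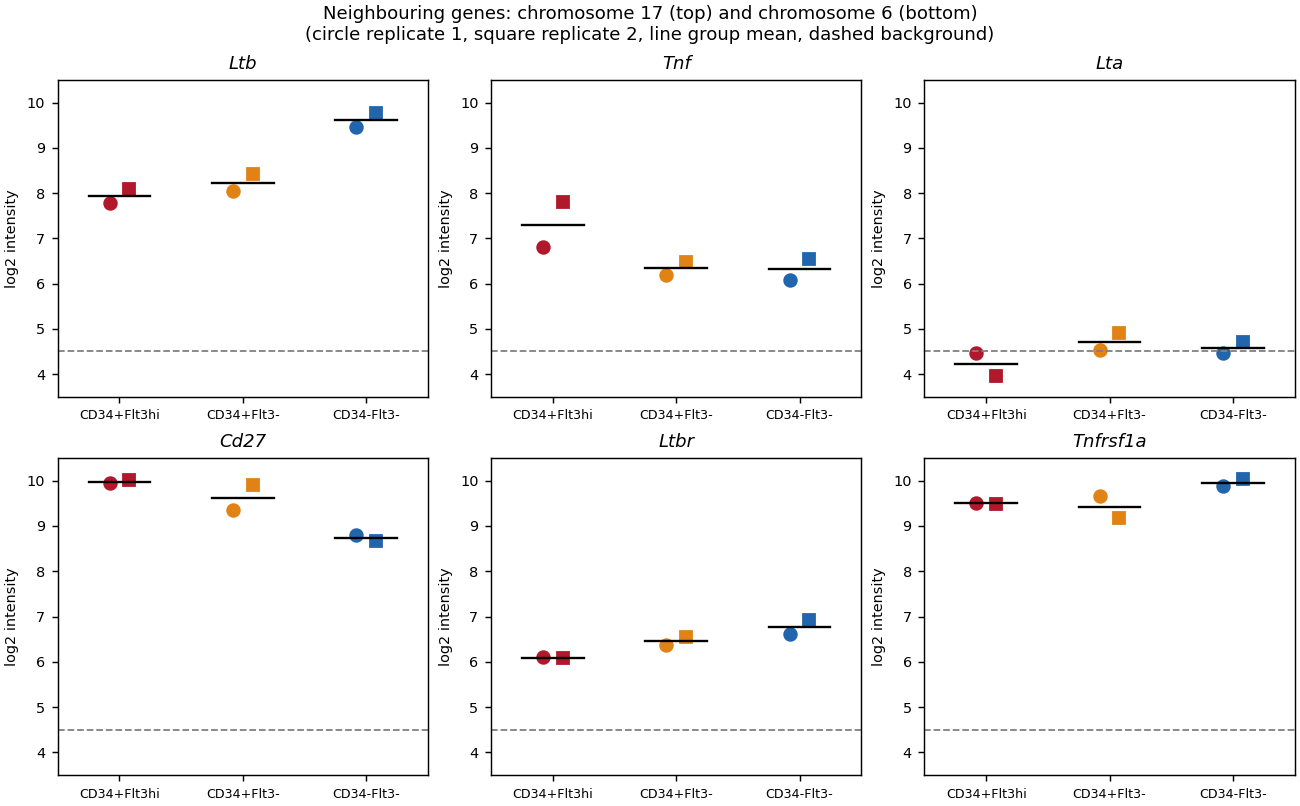
Log2 intensity (vertical axes) by gate of Ltb, Tnf and Lta, which neighbour each other on chromosome 17, and of Cd27, Ltbr and Tnfrsf1a, which lie close together on chromosome 6, with circles for replicate 1, squares for replicate 2, a line for the gate mean and a dashed line for background at 4.50. Ltb is lower in both CD34+ gates than in CD34-Flt3- cells, and the Lta arrays lie on either side of background. Cd27 is higher in both CD34+ gates, past the threshold only for CD34+Flt3hi cells.

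Tnfsf10 encodes TRAIL, a ligand that can start cell death through a death receptor. Its log2 intensities were 6.63 and 6.57 in CD34+Flt3hi, 7.0 and 6.0 in CD34+Flt3- and 7.44 and 7.51 in CD34-Flt3- cells. The differences from CD34-Flt3- cells were -0.87 ± 0.34 for CD34+Flt3hi and -0.97 ± 0.34 for CD34+Flt3- cells and did not pass (limma adjusted p = 0.203 and 0.186). Its probe sets disagreed in direction. One further probe set read 5.48 and 5.17 in CD34+Flt3hi, 4.68 and 4.63 in CD34+Flt3- and 4.35 and 4.21 in CD34-Flt3- cells, a difference of 1.04 between CD34+Flt3hi and CD34-Flt3- cells. The remaining Tnfsf10 probe set gave -0.17 for that comparison.

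The other ligands above background in every gate were Cd40lg, which activates B and dendritic cells through Cd40, and Tnfsf14, which encodes LIGHT, a ligand of the lymphotoxin beta receptor. Tnfsf14 read 6.82 and 6.44 in CD34+Flt3hi, 6.29 and 6.28 in CD34+Flt3- and 6.94 and 6.33 in CD34-Flt3- cells. Cd40lg read 5.30 and 5.26, 5.03 and 5.26, and 4.94 and 5.74 in the same order. No difference of either gene passed, and all lay between -0.35 and 0.34. Tnfsf8, the ligand of CD30, had a mean above background in CD34+Flt3hi (4.71) and CD34-Flt3- (5.06) but not in CD34+Flt3- cells (4.23). The 4-1BB ligand gene Tnfsf9 spread over 4.27 and 5.57 on the 2 CD34-Flt3- arrays, and none of its differences passed. Cd70, Fasl, Tnfsf11 and Tnfsf13b, the last of which encodes the B cell survival factor BAFF, had means below background in all 3 gates.

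Of the receptors besides Tnfrsf1b, none passed in any comparison. Tnfrsf1a encodes TNF receptor 1, which carries a death domain. It read 9.51 and 9.49 in CD34+Flt3hi, 9.66 and 9.17 in CD34+Flt3- and 9.88 and 10.04 in CD34-Flt3- cells, so both CD34-Flt3- arrays were again the highest. Its differences from CD34-Flt3- cells were -0.46 ± 0.24 for CD34+Flt3hi and -0.54 ± 0.24 for CD34+Flt3- cells (limma adjusted p = 0.347 and 0.276).

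Ltbr, the receptor of membrane lymphotoxin and LIGHT, read 6.10 and 6.08 in CD34+Flt3hi, 6.37 and 6.55 in CD34+Flt3- and 6.61 and 6.92 in CD34-Flt3- cells. No 2 gates overlapped, but the differences of -0.37, -0.31 and -0.67 did not pass (limma adjusted p = 0.922, 0.609 and 0.213 for CD34+Flt3hi against CD34+Flt3-, CD34+Flt3- against CD34-Flt3- and CD34+Flt3hi against CD34-Flt3- cells). Fas, a death receptor, read 5.0 and 4.93 in CD34+Flt3hi, 5.54 and 5.17 in CD34+Flt3- and 5.50 and 5.43 in CD34-Flt3- cells. Its difference between CD34+Flt3hi and CD34-Flt3- cells was -0.50 (95% interval -1.07 to 0.07, limma adjusted p = 0.345).

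The receptors of the BAFF system, known for B cell maturation, were read in LSK cells of all gates except Tnfrsf17, which stayed below background. Tnfrsf13c, the BAFF receptor, had 7.41 and 7.25 in CD34+Flt3hi, 6.41 and 6.54 in CD34+Flt3- and 6.98 and 6.71 in CD34-Flt3- cells. CD34+Flt3hi cells were above both other gates on each array, by 0.86 ± 0.27 against CD34+Flt3- cells (limma adjusted p = 0.355) and by 0.48 ± 0.27 against CD34-Flt3- cells (limma adjusted p = 0.386). Tnfrsf13b, which encodes TACI, had 8.92 and 8.56, 8.56 and 7.89, and 8.94 and 8.63 in the same order of gates. Its lowest value was on an array of the CD34+Flt3- gate, and its differences of 0.52, -0.56 and -0.04 did not pass (limma adjusted p = 0.857, 0.365 and 0.962 for CD34+Flt3hi against CD34+Flt3-, CD34+Flt3- against CD34-Flt3- and CD34+Flt3hi against CD34-Flt3- cells).

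Tnfrsf18, known as GITR on regulatory T cells, was well above background and even across the gates, with 7.89 and 8.16 in CD34+Flt3hi, 8.13 and 8.07 in CD34+Flt3- and 8.08 and 8.54 in CD34-Flt3- cells. The 95% interval of its difference between CD34+Flt3hi and CD34-Flt3- cells ran from -0.88 to 0.31. Tnfrsf4, its neighbour on chromosome 4 and the receptor for the product of Tnfsf4, read 5.93 and 5.46 in CD34+Flt3hi, 6.06 and 5.61 in CD34+Flt3- and 5.84 and 5.96 in CD34-Flt3- cells. The same interval for Tnfrsf4 ran from -0.86 to 0.45, so a change as large as the fall of 1.29 in Tnfsf4 lies outside it.

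Tnfrsf21, or death receptor 6, had 8.02 and 8.14 in CD34+Flt3hi and 8.35 and 8.07 in CD34+Flt3- cells, but 8.52 and 7.31 in CD34-Flt3- cells. The TWEAK receptor gene Tnfrsf12a was similarly split in that gate, at 6.05 and 6.54 in CD34+Flt3hi, 6.60 and 6.67 in CD34+Flt3- and 5.67 and 6.99 in CD34-Flt3- cells. For both genes the CD34-Flt3- arrays enclosed all the others on the probe set used, but not on the further probe set. There Tnfrsf21 read 6.66 and 6.49 in CD34-Flt3- cells and 6.22 to 6.37 in the other gates. Tnfrsf12a read 5.86 and 6.60 in CD34-Flt3- cells and 5.48 to 6.84 in the other gates. On the probe sets used, Cd40, Tnfrsf8, Tnfrsf9 and the TRAIL decoy receptor gene Tnfrsf22 were above background in all gates, with differences between -0.39 and 0.27. No further probe set of Tnfrsf9 or Tnfrsf22 had a mean above background in any gate. Tnfrsf11a, Tnfrsf14 and Tnfrsf19 straddled background, and Tnfrsf11b, Tnfrsf17, Tnfrsf23 and Tnfrsf25 had means below it in every gate. The TRAIL receptor gene Tnfrsf10b was below it on the probe set used, but its further probe set had means of 3.59 in CD34+Flt3hi, 3.58 in CD34+Flt3- and 4.51 in CD34-Flt3- cells, the last of them just above background.

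**Figure D5:**
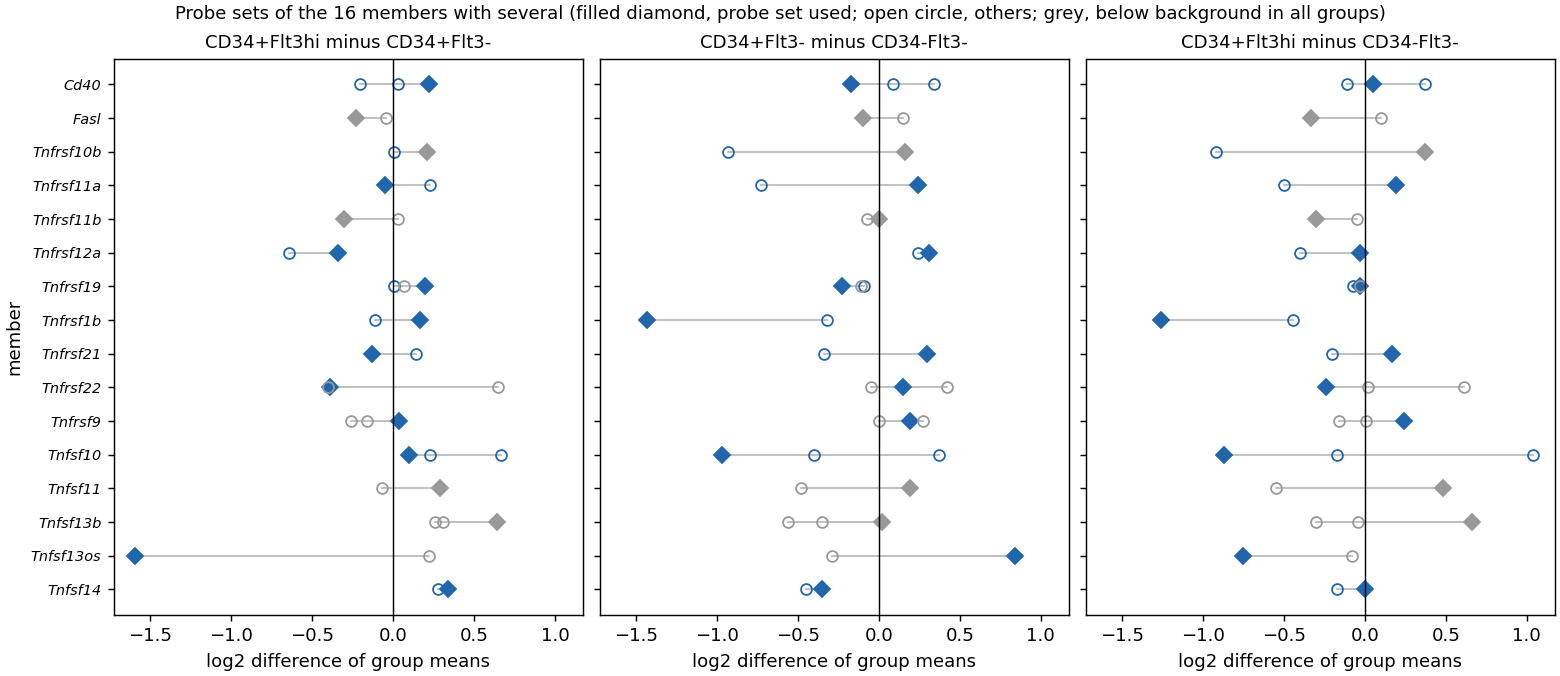
Differences of group means on the log2 scale (horizontal axes) for each probe set of the 16 members that have several, with filled diamonds for the probe set used, open circles for the others, and grey where a probe set was below background in all gates. The probe sets of Tnfsf10 lie on both sides of 0 in CD34+Flt3hi against CD34-Flt3- cells, and the further probe set of Tnfrsf1b lies on the same side as the one used.

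Of 6 superfamily members with other symbols, 1 passed, Cd27, the receptor for the product of Cd70 and a marker used to divide early progenitors. It read 9.94 and 10.02 in CD34+Flt3hi, 9.35 and 9.90 in CD34+Flt3- and 8.80 and 8.67 in CD34-Flt3- cells. CD34+Flt3hi cells were 2.37-fold higher than CD34-Flt3- cells (log2 1.24 ± 0.24, limma adjusted p = 0.0151, 1.35 within code A), opposite in sign to Ltb, Tnfrsf1b and Tnfsf4. Of all genes 2.62% rose in that comparison. The Cd27 difference of 0.89 ± 0.24 between CD34+Flt3- and CD34-Flt3- cells did not pass (limma adjusted p = 0.101). Leaving out CD34+Flt3hi replicate 1 or 2 ended the call (limma adjusted p = 0.161 and 0.188). Cd27 lies close to Ltbr and Tnfrsf1a on chromosome 6.

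None of 12 measured TRAF and adaptor genes passed in any comparison, with 2, 2 and 3 of them (16.7%, 16.7% and 25%) at an unadjusted p under 0.05 by limma in CD34+Flt3hi against CD34+Flt3-, CD34+Flt3- against CD34-Flt3- and CD34+Flt3hi against CD34-Flt3- cells, beside 6.76%, 16.9% and 18.3% of all genes. The largest differences among them were those of Traf3ip2, which encodes an adaptor of interleukin-17 receptors, at 7.05 and 7.32 in CD34+Flt3hi, 5.30 and 6.18 in CD34+Flt3- and 6.21 and 5.39 in CD34-Flt3- cells. Its differences of 1.44 from CD34+Flt3- and 1.39 from CD34-Flt3- cells did not pass (limma adjusted p = 0.215 and 0.0646). Relative to CD34-Flt3- cells, in CD34+Flt3hi cells 1 of 8 death pathway genes fell, 1 of 22 NF-kB pathway genes rose and 1 of 4 genes for the shedding of ligands fell. No other gene of these lists passed, and over all genes 3.5% fell and 2.62% rose in that comparison. Birc2, which encodes an inhibitor of apoptosis that binds TRAF2, was 2.06-fold lower in CD34+Flt3hi against CD34-Flt3- cells (8.45 and 8.68 against 9.46 and 9.76, limma adjusted p = 0.0382). Nfkbie, which encodes an NF-kB inhibitor, was 2.25-fold higher (7.80 and 8.11 against 7.08 and 6.48, limma adjusted p = 0.0458), and without probe sets that carry an x or s suffix its difference was 0.33. Timp3, an inhibitor of the protease that sheds TNF, was below background in CD34+Flt3hi cells (4.38 and 4.21) and at 5.66 and 5.33 in CD34-Flt3- cells (log2 -1.20, limma adjusted p = 0.0163). The mean of all its probe sets gave -0.51 (limma adjusted p = 0.139). Each of these 3 calls was lost without CD34+Flt3hi replicate 1 (adjusted p = 0.393, 0.22 and 0.122 for Birc2, Nfkbie and Timp3) and without its replicate 2 (0.218, 0.394 and 0.184). Birc2 and Nfkbie also lost theirs without CD34+Flt3- replicate 2 (0.0501 and 0.0818) and without CD34-Flt3- replicate 2 (0.0803 and 0.113), and Nfkbie without CD34+Flt3- replicate 1 (0.081). The median difference in CD34+Flt3hi against CD34-Flt3- cells was -0.04 for the adaptors, 0.40 for the death pathway and 0.01 for the NF-kB pathway, beside -0.07 for all genes. These medians in CD34+Flt3hi against CD34+Flt3- cells were 0.21, 0.55 and 0.14, beside 0.03 for all genes. For 5 of the 8 death pathway genes the arrays of these 2 gates did not overlap, all 5 being higher in CD34+Flt3hi cells, beside 40.4% of all genes, and none of the 8 had an unadjusted p under 0.05 by limma.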

How the data were processed

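RNA of 6 samples was hybridised to Affymetrix arrays after 2 rounds of in vitro transcription, per the labels. The values deposited by the authors are taken as linear RMA intensity (RMA is named in the submitters' processing notes, without a version), because they run from 6.50 to 24173, and their log2 was used here. Of 45101 probe sets, 34945 named a single gene. Symbols were updated by gene identifier (99.4% matched), and 1 probe set was kept per gene, that of highest mean over 6 arrays. Group means were fitted for all 18193 genes with limma 3.58.1 (R 4.3.3) and an intensity trend, with 3 residual and 6.86 prior degrees of freedom. Two-sided tests were used, with Benjamini-Hochberg adjustment across the whole table and a cutoff of 0.05. Exact permutation of 2 against 2 arrays has a smallest p of 0.333 and was not used. Intervals of 95% are unadjusted.

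Where a mean lay below background no fold is given. The members, the gene lists and the alternatives were chosen with earlier results of these data known. Full values were given for members past the threshold, members whose arrays did not overlap with a log2 difference of at least 1, and the 6 with the highest signal, and further members were named by their role after their values were seen. The fit was tested on simulated data and recovered 71.0% of log2 changes of 2 in CD34+Flt3hi against CD34-Flt3- cells, and 7.14% of changes of 1. The simulation changed fewer genes than the 1112 that passed in the real comparison, so its recovery rates need not hold there. Alternatives were the title code as a block, no trend, other normalizations, a filter on dim genes, other probe sets, only the arrays compared, a looser threshold and leaving out each array. Figures were drawn with matplotlib 3.10.9.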

Additional observations from a re-analysis of the deposited data

How the results depend on the processing

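Between 1 and 4 members passed each test, and the counts moved with several settings. In CD34+Flt3hi against CD34+Flt3- cells 1 member passed, against 2 with the title code as a fixed replicate block and 0 with median centring, with the mean of all probe sets or without x and s probe sets. In CD34+Flt3- against CD34-Flt3- cells 2 passed, against 5 with the fixed block, 1 without the intensity trend, 1 with the mean of all probe sets, and 0 with quantile normalization repeated or with the 4 arrays compared alone. In CD34+Flt3hi against CD34-Flt3- cells 3 passed, against 8 with the fixed block and 4 without x and s probe sets. There 2 passed with the mean of all probe sets, and 2 with the filter on dim genes, which left Tnfsf4 untested. In the F test 4 passed, against 10 with the fixed block and 2 when probe sets were averaged. It gave 3 with quantile normalization repeated and 3 with the filter on dim genes. Dropping 1 array gave 0 to 1, 0 to 4, 0 to 5 and 0 to 5 members in the same order of tests. In the settings with a limma count of 0, between 3 and 7 members had an unadjusted p under 0.05.

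The fixed block fits CD34-Flt3- replicate 1 exactly, so that its comparisons with that gate rest on replicate 2. It also leaves fewer residual degrees of freedom than the main fit, so its estimate of the spread leans more on the prior. Larger counts under the fixed block therefore do not by themselves show a more sensitive fit. The main fit did not take the codes to pair the arrays, and their meaning is not stated. Deviations of the code A arrays correlated at 0.0658 between CD34+Flt3hi and CD34+Flt3- and 0.0575 between CD34+Flt3hi and CD34-Flt3- cells. Between CD34+Flt3- and CD34-Flt3- cells they correlated at 0.313. These values do not settle whether arrays of a code are paired, which was not tested. Over all genes the fixed block took the calls to 670, 1579, 2360 and 2428 in the same order of tests, against 111, 382, 1112 and 849 without it. It added Tnf in CD34+Flt3hi against CD34+Flt3- cells (0.97, limma adjusted p = 0.0381). Members added in CD34+Flt3- against CD34-Flt3- cells were Tnfsf4 (-1.19, 0.0303), Tnfsf8 (-1.41, 0.00248) and Tnfsf10 (-1.27, 0.0233). Those added in CD34+Flt3hi against CD34-Flt3- cells were Tnf (1.08, 0.0472), Tnfrsf17 (-0.85, 0.0174), Tnfsf8 (-0.93, 0.0453), Tnfsf9 (-1.25, 0.00777) and Tnfsf10 (-1.17, 0.0284). With the code as a random block the counts stayed at 1, 2, 3 and 4.

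No member called in a comparison changed sign when the fit was altered. Between single probe sets, the further one of Tnfsf13os gave 0.22 in CD34+Flt3hi against CD34+Flt3- cells. Without x and s probe sets Tnfrsf10b was read from another probe set, near background, and passed at -0.92 for CD34+Flt3hi and -0.93 for CD34+Flt3- against CD34-Flt3- cells. These are opposite in sign to the differences of 0.37 and 0.16 on the probe set used in the main fit. That probe set was below background in every gate, and neither of its differences passed. The filter on dim genes left 13 of the 36 members. With 2 arrays a gate, a difference near 1 on the log2 scale could pass or not. In CD34+Flt3hi against CD34-Flt3- cells Birc2 at -1.04 passed and Tnf at 0.99 did not. A difference that did not pass is not shown to be absent.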
